A study of Mus musculus with 2 samples.

Results

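Respiratory chain and ATP synthase genes of the nuclear genome were compared between 2 samples of mouse heart. Genes were taken by symbol: those beginning with Nduf for complex I, Sdha to Sdhd for complex II, Uqcr for complex III, Cox4 to Cox8 for complex IV and Atp5 for complex V, with predicted genes left out. A total of 93 such genes had a probe, of 21368 named genes in all: 46 for complex I, 4 for complex II, 8 for complex III, 18 for complex IV and 17 for complex V. Of the 93, 91 were measured, which means that a probe was well above background on both arrays. The testis-type cytochrome c oxidase genes Cox7b2 and Cox8c reached this on neither array. Ndufb1, Ndufb4b and Ndufb4c had no probe named here. The symbols beginning Ndufaf belong to 8 assembly factors, proteins that help to build complex I and are not part of the finished enzyme.

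Cy3-labelled total RNA of heart was read on 1-colour Agilent arrays, 1 array per group. The WRN-K577M sample came from the line 5025Wcl/Mmmh, a B6.Cg-Tg transgenic on C57BL6 background that carries CAG-WRN*K577M, in which the ubiquitously active CAG promoter drives WRN, a RecQ DNA helicase, with a substitution in its helicase domain. The control sample was of the same C57BL6 background without a transgene in its label. Both titles also carry the letters ND, which the labels do not explain, and age, sex and the number of hearts behind each sample are not given in the sources used here, so that a heart below stands for a sample. The study asked which signalling goes with remodelling of the heart in this line.

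Complex I passes electrons from NADH, and complex II those from succinate, to ubiquinone. Complex III hands them on to cytochrome c and complex IV to oxygen, while complex V, the ATP synthase, makes ATP from the proton gradient that complexes I, III and IV build up. Heart muscle is packed with mitochondria, and some complex IV subunits exist in a heart and muscle form and in a widely expressed form. Subunits encoded by mitochondrial DNA are outside the symbol rule and were not analysed here.

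A level is the log2 processed signal minus the 75th percentile of the array, which was 210 in the WRN-K577M and 256 in the control array. Log2 ratios subtract the control level from the WRN-K577M level. With 1 array per group there is no replicate check and no p-value, and a difference between genotypes cannot be told apart from other differences between the samples. Repeated spots on the 2 arrays varied little. Over 255 probes printed at many spots the log2 ratio had an SD of 0.11 between spots, so that 2 SD make 1.17-fold. Over the 6 such probes at or above the lower quartile of the respiratory chain genes' mean level the SD was 0.047. Spots of an array share its RNA, labelling and hybridisation, so that this SD does not cover differences between arrays. The scanner software's own error of the ratio was 0.20 for nearly every gene named here, and 68 of the 91 genes had a ratio smaller than their software error. This error was the same for the complex III gene Uqcrc2 with 9 spots as for genes with 1 spot. It is thus close to a constant and no spread measured for each gene. The arrays were of like quality, with 52.9% of probes well above background on the WRN-K577M and 55.2% on the control array, and no spot was saturated.

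Tissue markers differed between the samples. All 15 ventricular cardiomyocyte markers were measured, with a summed signal of 6461 in the WRN-K577M heart and 5773 in the control heart (in units of the array's 75th percentile) and a median log2 ratio of 0.13. Atrial markers, measured for 8 of 10 genes, had a summed signal of 158 in the WRN-K577M and 657 in the control heart, and 7 of the 8 were at least 2-fold lower. Fgf12 was above background in the control heart only and Bmp10 in neither. Of 8 lung epithelial markers, Scgb1a1 was measured, with a log2 ratio of -7.78, 6 were above background in the control heart only, and Scgb3a2 was above background in neither. Erythroid markers (4 of 5 measured) had summed signals of 192 in the WRN-K577M and 820 in the control heart, macrophage markers (7 of 7) 16.5 in the WRN-K577M and 28.2 in the control heart, and fibroblast markers (6 of 6) 217 in the WRN-K577M and 293 in the control heart. The fibroblast sum is mostly Dcn, with a log2 ratio of -0.059, while 4 of the 6 were at least 2-fold lower and the median was -1.62. Skeletal muscle markers (6 of 10) summed to 60.3 in the WRN-K577M and 86.6 in the control heart, with a median log2 ratio of -0.10. That sum is mostly Acta1 (-0.75). Pvalb (-0.95), Tnni2 (-0.15) and Atp2a1 (-0.055) were also lower, while the dim Mylpf (0.79) and Tnnt3 (0.76) were higher. The fast myosins Myh1, Myh2 and Myh4 and Actn3 were above background in neither. The white adipocyte list (5 of 7) summed to 196 in the WRN-K577M and 159 in the control heart, yet 4 of its genes were at least 2-fold lower, with the fatty acid carrier Fabp4 at 0.53. Brown fat markers (5 of 7) summed to 110 in the WRN-K577M and 89.5 in the control heart, with a median log2 ratio of 0.28. Cpt1b (0.34), Cidea (0.28) and Ppargc1a (0.28) were higher, and Dio2 (-1.25) and Zic1 (-0.12) were lower. Ucp1 was above background in the control heart only and Elovl3 in neither. Endothelial markers (5 of 5) summed to 25.8 in the WRN-K577M and 27.2 in the control heart. In whole tissue, fewer cells of a type and less RNA per cell cannot be told apart, and the part of these cells in the ratios below was not tested.

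Respiratory chain genes as a whole were close to equal in the WRN-K577M and control hearts. Their median log2 ratio was 0.013, with quartiles of -0.065 and 0.13, against a median of 0.020 and quartiles of -0.22 and 0.24 over all 14003 measured genes. The gap between these medians, -0.0072, was -0.11 without a filter on dim probes, -0.097 with normexp background correction, -0.089 with cyclic loess and -0.087 with quantile normalization. Ratios above 0 were found for 52 of 91 genes (57.1%), against 52.4% of all measured genes, and for 26 genes with quantile normalization and 22 with cyclic loess. No respiratory chain gene was 2-fold or even 1.5-fold different, where 5.39% and 15.9% of all measured genes were. Cox6a1 lay just short of the smaller step, at 1.49-fold lower, and passed it with normexp, quantile, cyclic loess, detected-probe and median scaling, where its log2 ratio ran from -0.70 to -0.59. A smaller step of at least 25% upward was seen in 1 gene (17.7% of all measured genes), and one of at least 20% downward, the same fold, in 2 genes (18.4% of all measured genes). Sdhc was the higher one, and Cox6a1 and Ndufab1 were the lower ones. The counts depended on the processing: none was 25% higher with normexp, quantile, cyclic loess, detected-probe or median scaling, and 6 were 20% lower with quantile normalization and with cyclic loess. The SD was 0.17 over these genes and 0.52 over all measured genes, and 65 of the 91 (71.4%) lay within 0.2 of 0, as did 44.2% of all measured genes. Most of the 91 are bright, however, with 35 at mean level 8 or more and 40 between 6 and 8. The other genes at 8 or more also spread little, with quartiles of 0.093 and 0.26. Those between 6 and 8 had quartiles of -0.024 and 0.31.

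Small differences ran between the complexes. The median log2 ratio was -0.010 for complex I (46 genes), 0.10 for complex II (4), -0.0017 for complex III (8), 0.089 for complex IV (16) and 0.080 for complex V (17). Ratios above 0 were found for 20 of 46 genes in complex I, 3 of 4 in complex II, 3 of 8 in complex III, 12 of 16 in complex IV and 14 of 17 in complex V. Complexes I and III thus had the lower medians and complexes II, IV and V the higher ones. Of all measured genes, 52.4% were above 0, and of genes outside the respiratory chain at mean level 8 or more, 82.1% were. Set against the median of the genes of the other complexes, complex I differed by -0.075, complex II by 0.088, complex III by -0.020, complex IV by 0.085 and complex V by 0.078. These steps are smaller than the software error of a single gene's ratio, and the genes of a complex share the same 2 arrays, so that they are no replicates.

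**Figure D1:**
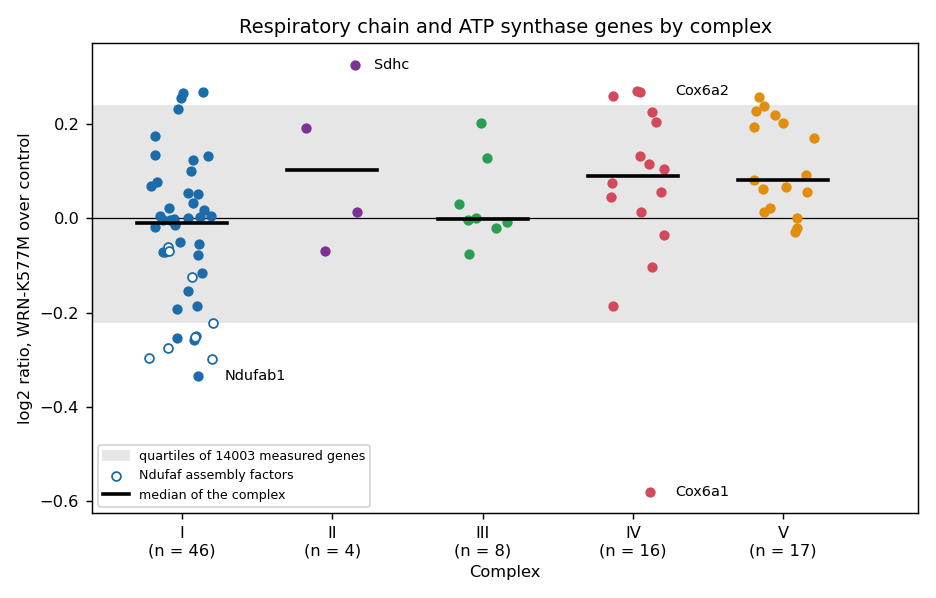
Log2 ratio of the WRN-K577M over the control array (vertical axis) for each measured gene, by complex (horizontal axis, with the number of genes). Points are genes, open points the Ndufaf assembly factors, bars the median of a complex and the grey band the quartiles of all 14003 measured genes. Most points lie inside the band, Cox6a1 at -0.58 stands apart, and the open points all lie below 0.

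In complex I, the catalytic core that carries the electrons held ratios on either side of 0. Its 7 nuclear-encoded subunits had a median log2 ratio of 0.032 with 5 above 0, and one of -0.070 with 1 above 0 after cyclic loess. Ndufv1, which binds NADH and the flavin, gave a level of 8.54 in the WRN-K577M and 8.27 in the control heart, a log2 ratio of 0.27 and the highest of the complex. Its partner Ndufv2, an iron-sulphur protein, gave a level of 7.24 in the WRN-K577M and 7.49 in the control heart (ratio -0.25). Ndufs8, which holds iron-sulphur clusters near the quinone site, gave a level of 5.11 in the WRN-K577M and 5.37 in the control heart (-0.26). Core genes thus stood near both ends of the range of complex I. Further core subunits were nearly equal: Ndufs1 had a ratio of 0.10, Ndufs3 of 0.051 and Ndufs7 of 0.032.

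Among the 31 genes counted by name as accessory subunits of complex I, which surround the core, 15 had a ratio above 0 and the median was -0.0023. They include Ndufa4, also known as a subunit of complex IV, and Ndufa4l2, which is named after it. The highest were small subunits: Ndufa7 had a ratio of 0.26, Ndufa3 a level of 8.77 in the WRN-K577M and 8.52 in the control heart (0.26), and Ndufa2 one of 7.98 in the WRN-K577M and 7.75 in the control heart (0.23). The lowest was Ndufab1, the mitochondrial acyl carrier protein, which also serves fatty acid synthesis. It gave a level of 0.33 in the WRN-K577M and 0.66 in the control heart (-0.33), and a pseudogene is named after it. Ndufb6 followed with 6.24 in the WRN-K577M and 6.49 in the control heart (-0.25), then Ndufa8 with a ratio of -0.19, Ndufs4, whose loss gives a Leigh-like disease in mice, with -0.19, Ndufb2 with -0.15 and Ndufa11 with -0.12. By name, the 14 Ndufa genes with a number had a median of 0.029, the 10 Ndufb genes one of -0.0035, and Ndufc1 and Ndufc2 were at 0.0045 and -0.0034. Above 0.1 stood also Ndufa1 (0.17), Ndufa13 (0.13), Ndufb11 (0.13) and Ndufb9 (0.12). The remaining 18 of the 31 genes lay between -0.079 (Ndufa4l2) and 0.077 (Ndufa5).

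The assembly factors of complex I were lower without exception in this comparison. Each of the 8 lay below 0, with a median of -0.24 and a range from -0.30 to -0.061, and none was 20% lower. Ndufaf1, an early assembly factor, gave a level of 3.59 in the WRN-K577M and 3.89 in the control heart (-0.30), and Ndufaf4 gave 3.95 in the WRN-K577M and 4.20 in the control heart (-0.25). Ndufaf6 had a ratio of -0.30, Ndufaf5 of -0.27, Ndufaf7 of -0.22, Ndufaf3 of -0.13, Ndufaf8 of -0.069 and Ndufaf2 of -0.061. The ratios of Ndufaf3, Ndufaf8 and Ndufaf2 were smaller than the software error of 0.20. The 8 genes lay below 0 under all 10 ways of processing tried, among 34 of the 91 that did so, while 21 lay above 0 in all and 36 differed in sign. Their mean levels were below most subunits', and 5 of them lay between 2 and 4, where 51.0% of the other measured genes were above 0. Of all 16 respiratory chain genes below level 6, these 8 included, 2 were above 0. Without the assembly factors the median of complex I was 0.0020, so its sign rested on them.

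Assembly and maturation factors of the respiratory chain outside the symbol rule were spread more widely. Of 41 such genes with a probe, 40 were measured, 27 of these lay below 0, and the median was -0.15. By the same steps, 2 of the 40 were at least 25% higher, a smaller share than the 17.7% of all measured genes. At least 20% lower were 8 of the 40, a share near the 18.4% of all measured genes. Taco1, needed to translate a mitochondrial cytochrome c oxidase subunit, was the sole one past 1.5-fold with a level of -0.25 in the WRN-K577M and 0.50 in the control heart (-0.76). Bcs1l, which inserts the Rieske protein into complex III, had a ratio of -0.56, and Coa5 of -0.55. On the other side stood Surf1, a complex IV assembly factor, with 0.49, Cox16 with 0.38 and Coa4 with 0.29. Lyrm7 was above background in the control heart only.

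All 4 subunits of succinate dehydrogenase, the enzyme shared by the respiratory chain and the citric acid cycle, were measured. Sdhc, a membrane anchor, gave a level of 6.72 in the WRN-K577M and 6.39 in the control heart, a log2 ratio of 0.32 that was the highest of all 91 genes, and its other probe gave 0.36. Sdhb, the iron-sulphur subunit, gave a level of 8.60 in the WRN-K577M and 8.41 in the control heart (0.19, and 0.13 by its other probe). Sdha, the flavoprotein, was nearly equal with 6.70 in the WRN-K577M and 6.69 in the control heart (0.012). Sdhd, the second membrane anchor, had 7.15 in the WRN-K577M and 7.21 in the control heart (-0.069). The anchors Sdhc and Sdhd, which sit together in the membrane, thus had ratios on either side of 0.

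Complex III had the narrowest spread, with an SD of 0.090 over its 8 genes. Uqcr10, a small subunit, was highest with a level of 7.84 in the WRN-K577M and 7.64 in the control heart (0.20), and its other probes gave 0.17 and 0.097. Uqcrh, the hinge protein at the cytochrome c site, had a ratio of 0.13 and Uqcr11 of 0.030. Uqcrfs1, the Rieske iron-sulphur protein, had levels of 7.49 on both arrays (-0.0032), and Uqcrq, Uqcrb and the core protein Uqcrc1 had ratios of -0.00026, -0.021 and -0.076. Uqcrc2, the other core protein, was printed at many spots, of which 9 were used, and serves as a check of the spread between spots. Its level was 7.77 ± 0.035 in the WRN-K577M and 7.78 ± 0.024 in the control heart (SD over 9 spots of 1 array each), and its log2 ratio of -0.0092 ran from -0.089 to 0.044 over the spots.

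Complex IV held the gene farthest from 0, and its paired isoforms differed from each other. Cox6a1, the widely expressed form of subunit 6a, gave a level of 7.48 in the WRN-K577M and 8.06 in the control heart, a log2 ratio of -0.58 (1.49-fold lower). Cox6a2, the heart and muscle form of the same subunit, gave a level of 10.10 in the WRN-K577M and 9.83 in the control heart (0.27). The ratios of this pair thus differed by 0.85, or 1.80-fold, with a software error of 0.29 for the difference, and by 0.68 to 0.91 over the ways of processing tried. Each of the pair was read by 1 probe.

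The other isoform pairs differed less. Cox8b, the heart and muscle form of subunit 8, gave a level of 9.10 in the WRN-K577M and 8.88 in the control heart (0.22), and the widely expressed Cox8a had 7.13 in the WRN-K577M and 7.23 in the control heart (-0.10, and -0.12 by its other probe), a difference of 0.33. With quantile normalization the difference was 0.17, under its software error of 0.29. For subunit 7a, Cox7a1 of heart and muscle had a ratio of 0.045 and the widely expressed Cox7a2 of -0.037. Their difference of 0.081 was within the software error of 0.29. In subunit 4, Cox4i1 is the common form and gave a level of 9.49 in the WRN-K577M and 9.22 in the control heart (0.27), while Cox4i2, a form known from lung, had 0.43 in the WRN-K577M and 0.62 in the control heart (-0.19). The heart and muscle form had the higher ratio in all 3 subunits that have one, though for subunit 7a the order turned with quantile normalization. A like split was seen in the ADP/ATP carriers outside the symbol rule: the heart and muscle form Slc25a4 gave a level of 9.91 in the WRN-K577M and 9.68 in the control heart (0.23), and Slc25a5 had 4.35 in the WRN-K577M and 4.80 in the control heart (-0.45). Each heart and muscle form named here was also the brighter of its pair. Other measured genes at mean level 8 or more had a median ratio of 0.20, with 82.1% above 0. Lung, blood and fibroblast markers were lower in the same heart, with the values given above. The part of brightness and of these cells in the isoform ratios was not tested.

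**Figure D2:**
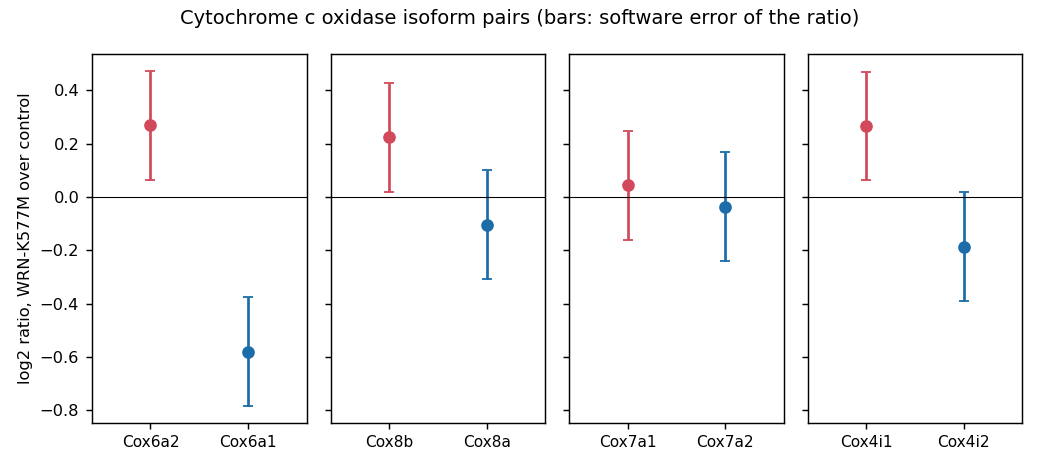
Log2 ratio of the WRN-K577M over the control array for 4 pairs of cytochrome c oxidase isoforms, 1 pair per panel. Bars are the scanner software's error of the ratio, 0.20 for each gene here (not a spread between hearts). The bars of Cox6a2 and Cox6a1 do not overlap, those of Cox4i1 and Cox4i2 do not either, and the bars of the other 2 pairs do.

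The remaining subunits of complex IV were equal or slightly higher. Cox6c had a ratio of 0.20, Cox7b of 0.13, Cox5b of 0.11, Cox7c of 0.10, Cox5a of 0.075, Cox6b1 of 0.056 and Cox7a2l of 0.012. Cox6b2, the testis form of subunit 6b, was dim and gave a level of 0.35 in the WRN-K577M and 0.093 in the control heart (0.26). Ndufa4, counted here with complex I by its name, is also known as a subunit of complex IV, and had levels of 7.33 on both arrays. With it moved, the medians were -0.015 for complex I and 0.075 for complex IV.

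In complex V, the 5 genes of the F1 head and central stalk were above 0 with a median of 0.22. Their mean levels ran from 6.41 to 9.09. Of the other measured genes, 72.8% were above 0 between levels 6 and 8 (median 0.17) and 82.1% at 8 or more (median 0.20). With normexp, quantile and cyclic loess the median was 0.12, 0.096 and 0.072, and 4 of the 5 were above 0, with Atp5d down to -0.041. Atp5b, the catalytic beta subunit, gave a level of 9.20 in the WRN-K577M and 8.98 in the control heart (0.22), and Atp5a1, the alpha subunit, had a ratio of 0.19. The rotor subunits Atp5c1 (gamma) and Atp5e (epsilon) had ratios of 0.23 and 0.24, and Atp5d (delta) one of 0.062. The head genes other than Atp5d thus lay close together, between 0.19 and 0.24. Of the 3 genes that encode the same c ring protein, Atp5g2 gave a level of 8.48 in the WRN-K577M and 8.23 in the control heart (0.26), the highest of the complex, while Atp5g1 and Atp5g3 had ratios of 0.055 and 0.020. After quantile normalization the median of these 3 was -0.13, with 1 above 0.

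In the peripheral stalk of complex V, which holds the head still, Atp5h had a ratio of 0.20, Atp5j of 0.091, Atp5o of 0.080 and Atp5pb of -0.030. The small membrane subunits had a median of 0.013: Atp5j2 had a ratio of 0.17, Atp5md of 0.065, Atp5l of 0.013, Atp5mpl of -0.000020 and Atp5k of -0.020. The medians stood at 0.22 for the head and central stalk, 0.055 for the c ring, 0.086 for the peripheral stalk and 0.013 for the membrane subunits. With cyclic loess normalization the median of complex V was -0.021, so its place above 0 depended on the scaling. Against the other complexes' genes it stood higher by 0.087 with cyclic loess, and constant scalings cannot change that gap.

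Brightness went along with the ratio. Over the 91 genes, mean level and log2 ratio had a Pearson r of 0.52 and a Spearman rho of 0.59, a description across genes of the same 2 arrays. Of the 91 genes, 75 had a mean level of 6 or more, as did 519 of all 14003 measured genes. Between 6 and 8, the 40 respiratory chain genes had a median ratio of 0.0043 and the 349 other measured genes one of 0.17. At 8 or more, the 35 respiratory chain genes had a median of 0.12, with 28 above 0, and the 95 other genes one of 0.20, with 82.1% above 0. Bright genes thus had ratios above 0 on this scale, and the respiratory chain genes lay lower than other genes of their brightness. Among the 16 genes below level 6, which include the 8 assembly factors, 2 were above 0. Among the genes at level 6 or more, complexes I and III again had lower medians than the rest. The medians were 0.0045 for complex I, 0.10 for II, -0.0017 for III, 0.10 for IV and 0.080 for V. Within these 75 genes, level and ratio still had a Pearson r of 0.40 and a Spearman rho of 0.46. The cut at 6 therefore does not separate the complexes from brightness.

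**Figure D3:**
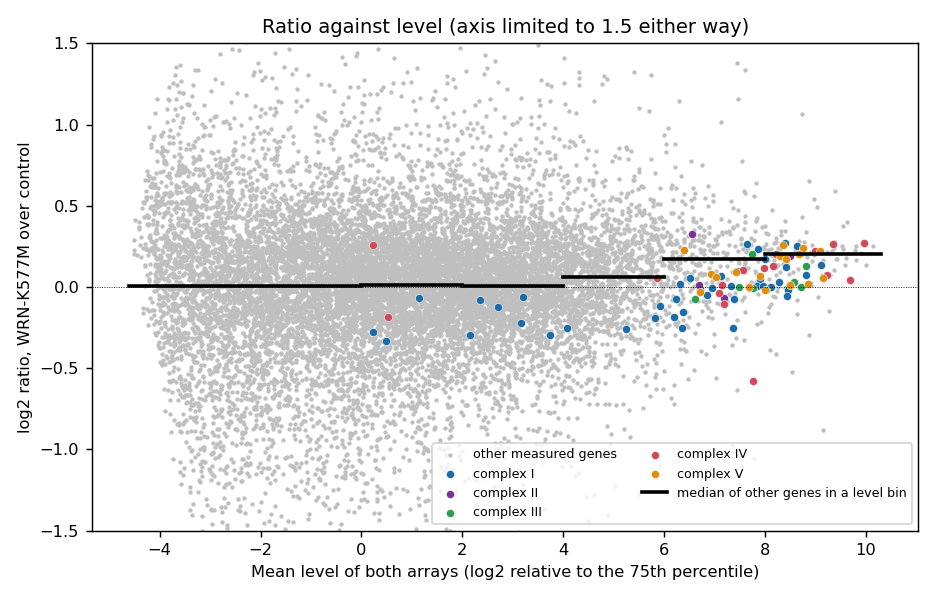
Log2 ratio of the WRN-K577M over the control array (vertical axis, limited to 1.5 either way) against the mean level of both arrays (horizontal axis, log2 relative to the 75th percentile). Grey points are other measured genes, coloured points respiratory chain genes by complex, and black lines the median of the other genes in bins of level. The black line stands at 0.17 between levels 6 and 8 and at 0.20 above 8, and most coloured points in these bins lie under it.

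Of the 91 genes, 23 were read by several measured probes, and for 15 of these the probes' ratios lay within 0.13 of each other. In 4 genes, all of complex I, they differed by 0.3 or more. Ndufv3, an accessory subunit, had levels of 8.41 in the WRN-K577M and 8.46 in the control heart by its bright probe (-0.055), but of -0.32 in the WRN-K577M and 0.76 in the control heart by a dim probe (-1.08). Ndufb11 had a ratio of 0.13 by its bright probe, and by a dim one levels of -0.32 in the WRN-K577M and -1.01 in the control heart (0.69). The bright and dim probes thus gave different answers in both genes, and which transcripts each probe reads is not given in the files. Ndufaf4 had ratios of -0.25 and -0.71, on the same side, and Ndufb5 of 0.069 and -0.24. A pseudogene is named in the RefSeq table for 10 measured genes (Atp5c1, Atp5k, Atp5l, Atp5pb, Cox5b, Cox7c, Ndufa12, Ndufab1, Ndufs5 and Uqcrh), and whether their probes also bind pseudogene RNA was not tested.

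**Figure D4:**
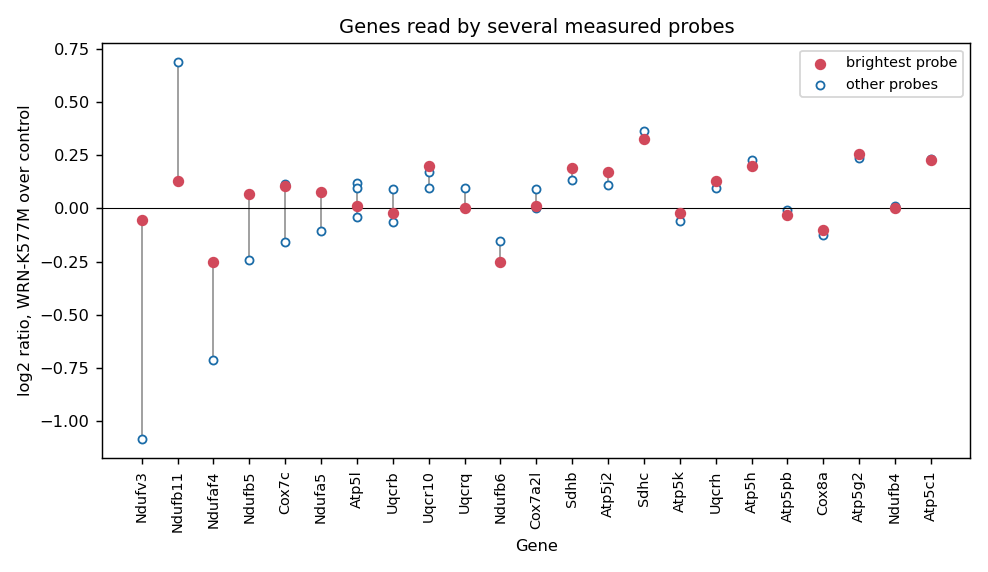
Log2 ratio of the WRN-K577M over the control array for each measured probe of the 23 genes read by several, ordered by the range of a gene's probes. Filled points are the brightest probe, whose value stands for the gene, and open points the others. Ndufv3 and Ndufb11 have open points at -1.08 and 0.69 far from their filled points, and most other genes have points close together.

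Promoters of the respiratory chain genes were searched for the motifs of factors known to act on them. NRF1 and the ETS factor GABP are known activators of these genes, and the oestrogen-related receptors (ERR) act with the coactivator PGC-1alpha in heart. RefSeq promoters of GRCm38.p6, 250 bases before to 50 after a gene's start, were found for 75 of the 91 genes (80 promoters). The letters TGCGCANGC, for NRF1, stood on either strand in 14 of the 80 (17.5%) and in 4.16% of all 32851 promoters. CCGGAAG, for ETS factors including GABP, stood in 19 of 80 (23.8%) and in 8.86% of all. TCAAGGTCA, for ERR, stood in 2 of 80 (2.50%) and in 0.423% of all. The promoters of these genes were also richer in G and C (median 58.5%) than all promoters (52.7%). The 13 genes with the NRF1 letters had a median log2 ratio of -0.015, with 5 above 0, and the 62 without them 0.031, with 38 above 0. For ERR the medians were -0.024 (2 genes) with and 0.012 (73 genes) without the letters, and those for CCGGAAG were 0.013 (19 genes) with and 0.012 (56 genes) without.

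The 250 bases before the start are shown for 4 of these genes, 5′ to 3′ on the gene's strand, with the motif letters in capitals: Cox6a1 as the gene with the largest difference, Sdhd as a gene holding several motifs, Atp5g2 as the highest of complex V and Ndufaf4 as an assembly factor. They lie at chr5:115348959-115349208 (minus strand), chr9:50603850-50604099 (minus), chr15:102671048-102671297 (minus) and chr4:24897833-24898082 (plus) of GRCm38.p6.
Cox6a1: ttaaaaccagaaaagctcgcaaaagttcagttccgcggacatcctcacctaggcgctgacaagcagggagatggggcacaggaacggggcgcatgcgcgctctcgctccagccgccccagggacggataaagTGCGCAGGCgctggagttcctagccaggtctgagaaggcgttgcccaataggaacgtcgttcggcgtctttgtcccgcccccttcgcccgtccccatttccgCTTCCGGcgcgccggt
Sdhd: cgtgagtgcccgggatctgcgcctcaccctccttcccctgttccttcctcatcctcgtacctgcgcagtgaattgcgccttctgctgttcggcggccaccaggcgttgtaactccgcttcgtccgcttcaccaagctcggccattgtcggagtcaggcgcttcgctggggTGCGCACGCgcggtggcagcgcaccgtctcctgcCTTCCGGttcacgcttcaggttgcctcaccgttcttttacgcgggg
Atp5g2: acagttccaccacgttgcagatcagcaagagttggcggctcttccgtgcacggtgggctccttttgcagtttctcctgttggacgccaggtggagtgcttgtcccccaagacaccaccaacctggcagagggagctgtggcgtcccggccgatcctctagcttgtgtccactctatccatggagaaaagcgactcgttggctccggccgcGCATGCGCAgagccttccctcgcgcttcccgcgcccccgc
Ndufaf4: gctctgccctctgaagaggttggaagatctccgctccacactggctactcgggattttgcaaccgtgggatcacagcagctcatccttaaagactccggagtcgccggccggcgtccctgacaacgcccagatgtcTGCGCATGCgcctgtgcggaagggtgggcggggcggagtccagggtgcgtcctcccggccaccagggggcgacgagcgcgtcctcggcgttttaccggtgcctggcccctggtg
Cox6a1 (-0.58) and Sdhd (-0.069) each hold the NRF1 letters and CCGGAAG (read here as its reverse complement). The Sdhd promoter also holds the ERR letters, though not within the bases shown. Atp5g2 (0.26, again the reverse complement) and Ndufaf4 (-0.25) hold the NRF1 letters, so that genes with the same letters stood at opposite ends of the range. A match is a run of letters and not a bound site.

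Electron carriers, citric acid cycle genes, regulators and carriers beside the respiratory chain had list medians between -0.13 and 0.094. Of all measured genes, 52.4% were above 0, 17.7% at least 25% higher and 18.4% at least 20% lower. Of 10 electron carriers and dehydrogenases, 6 were above 0 with a median of 0.094, and 3 were at least 20% lower. Cycs, the cytochrome c that links complexes III and IV, gave a level of 7.91 in the WRN-K577M and 8.30 in the control heart (-0.39), Dhodh, of pyrimidine synthesis, had a ratio of -0.41 and Gpd2, of the glycerol phosphate shuttle, one of -0.35. Sqor, which oxidises sulphide (0.30), Etfa, which takes electrons from fatty acid oxidation (0.30), and Coq10b (0.24) were the highest of that list. Of 14 citric acid cycle genes, 7 were above 0 with a median of 0.019, from Dlst (-0.20) to Idh2, the mitochondrial isocitrate dehydrogenase, the only one of them at least 25% higher (0.43).

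Regulators of mitochondrial gene expression were spread around 0, with 10 of 19 above it and a median of 0.017. Pprc1, a coactivator of the PGC-1 family, was highest with a ratio of 0.56, followed by the transcription factor Nrf1 with 0.40 and Tfb2m, needed for mitochondrial transcription, with 0.31. Ppara, the receptor that drives fatty acid oxidation genes, was lowest with a level of 3.62 in the WRN-K577M and 4.12 in the control heart (-0.50), followed by Tfam, which packs mitochondrial DNA, with -0.36 and Esrra with -0.23. At least 25% higher were 2 of the 19, and at least 20% lower another 2, where 17.7% and 18.4% of all measured genes were. Of 9 carriers and channels, 4 were above 0 with a median of -0.13, and Ckmt2, the mitochondrial creatine kinase of muscle, gave a level of 8.73 in the WRN-K577M and 9.02 in the control heart (-0.30).

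The standing of the complexes relative to each other depended less on the scaling than their standing relative to 0. Over 10 to 12 ways of processing, the complex I median lay below the median of the other complexes' genes by -0.11 to -0.063, and the complex V median lay above by 0.078 to 0.11. Against 0, the complex II median ran from -0.014 to 0.10 and that of complex IV from -0.030 to 0.089. All 5 medians were below 0 with cyclic loess normalization.

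**Figure D5:**
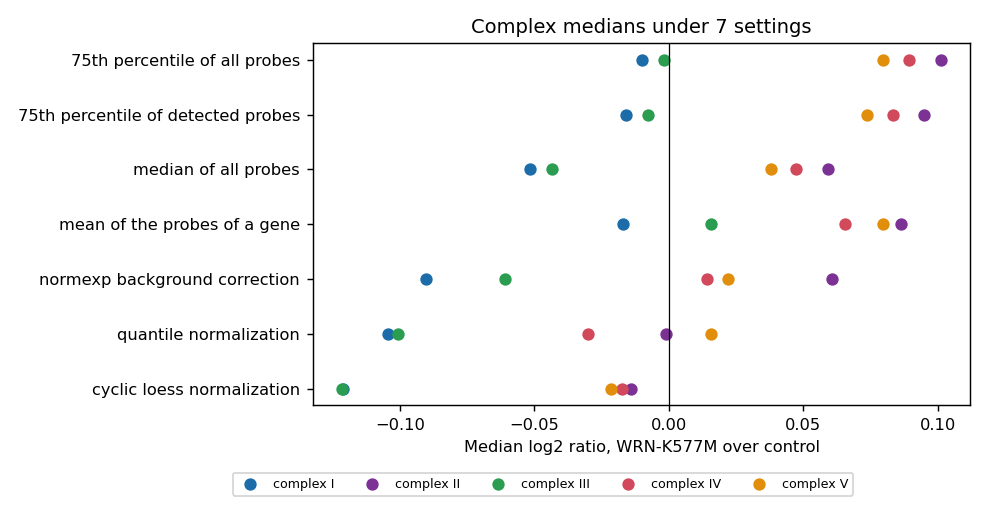
Median log2 ratio of each complex (horizontal axis) under 7 ways of scaling, background correction or probe choice (vertical axis). Points of complexes I and III lie left of those of II, IV and V in every line, while the whole group shifts. Percentile and median scalings move the points of all complexes alike. All 5 points lie below 0 with cyclic loess.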

How the data were processed

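Total RNA of 2 samples of mouse heart, 1 sample per group by the genotype in the labels, was measured on 1-colour Agilent arrays lying on 1 slide. Spot intensity values as deposited come from Agilent's scanner software (Feature Extraction version 11.5.1.1), per the file headers. The processed signal is background-subtracted and detrended and was not scaled between arrays, and raw spot and background medians and 0 or 1 flags, used as other columns, stand beside it. The series matrix deposited by the authors holds the same intensity times 4.86 (WRN-K577M) or 4.12 (control), neither log-transformed nor centred, with column medians of 79.0 and 79.5. The origin of these factors is unknown here.

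Control spots and 257 outlier spots were left out, processed signals were put on the log2 scale relative to the 75th percentile of their array, and spots of a probe were averaged. Unversioned RefSeq accessions were looked up in a GRCm38.p6 table (22544 of 23871 matched, 28330 of 55680 probes named, each with 1 symbol). The array design is annotated on mm9, so table coordinates are given only for promoter sequences. A gene took its brightest probe well above background on both arrays. No test was possible with 1 array per group, and genes are described by log2 ratio and by counts at least 25% higher or 20% lower, 1.5-fold and 2-fold different. The genes, the 22 lists and these rules, which allow every gene of the symbol rule to be named and up to 3 at each end of another list, were chosen with earlier results of these data known. The alternatives were normexp with an offset of 50 (on the median spot signal), quantile and cyclic loess normalization, 2 other scalings, 2 other filters, the deposited matrix, averaging over a gene's probes, Ndufa4 moved to complex IV and assembly factors left out. Python 3.11.15, numpy 2.4.6, pandas 2.3.3, matplotlib 3.10.9, R 4.3.3 and limma 3.58.1 were used, and the counting was tested on simulated data. The number of arrays limits the precision.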

Additional observations from a re-analysis of the deposited data

How the results depend on the processing

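The median log2 ratio of all 91 genes, 0.013, was -0.083 after quantile normalization, -0.10 after cyclic loess, -0.047 after normexp background correction and -0.029 after scaling to the median of all probes. For single complexes, quantile normalization gave -0.0012 for complex II and -0.030 for complex IV, and cyclic loess gave -0.014 for II, -0.12 for III, -0.018 for IV and -0.021 for V. Complex III had 0.016 with the mean of a gene's probes, and complex I 0.0020 without the assembly factors. Genes above 0 numbered 26 with quantile normalization and 22 with cyclic loess. Counts at least 1.5-fold lower were 1 (Cox6a1) with normexp, quantile, cyclic loess, detected-probe and median scaling, and 1 with no filter (Cox7b2, not above background), which was then also 2-fold different. At the lower threshold, 1 gene was 25% higher and 2 were 20% lower, against 0 and 6 with quantile normalization and with cyclic loess, 0 and 4 with median scaling, 0 and 3 with normexp, and 2 and 4 with the mean of a gene's probes. Isoform differences with quantile normalization were -0.24 (Cox4i2 minus Cox4i1), 0.68 (Cox6a2 minus Cox6a1), -0.029 (Cox7a1 minus Cox7a2) and 0.17 (Cox8b minus Cox8a), and with cyclic loess that of Cox4i2 minus Cox4i1 was -0.30. The cause of these shifts was not tested. Of the 91 single-gene values, 47 moved by more than the between-spot SD with cyclic loess, 23 with quantile normalization, 19 with normexp and 4 with the mean of a gene's probes, while constant scalings and filters cannot move a gene far. Sdhc, Cox6a1 and Ndufab1, which were at least 25% higher or 20% lower, kept their sign, but these were the genes farthest from 0. Of the 91 genes, 36 differed in sign between ways of processing. Since there is 1 array per group, no array could be left out. No paired analysis was possible because each group holds 1 sample and the labels give no replicate numbers.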
